A study of Mus musculus with 2 samples.

Results

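Foxp3, Il2ra, Ikzf2, Tnfrsf18, Tnfrsf4, Izumo1r, Gpr83, Nrp1, Capg and Nt5e are genes by which regulatory T cells are commonly told from other T cells. All 10 symbols were found in the gene list of both libraries, among 27933 gene symbols. They were chosen by name, with earlier results of these data known. The study measured single-cell RNA of lymph node immune cells from mice that carried a transplanted heart. In the allogeneic library the donor was C57BL/6 and the recipient Balb/c, and in the syngeneic library donor and recipient were both Balb/c. All mice were 6 to 8 weeks old, and the labels give neither the number of animals pooled nor the time after transplantation. With 1 library per group there is no replicate: intervals given here are exact 95% intervals for counting error in these libraries, and no p-value was made.

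Regulatory T cells are CD4 T cells that restrain other lymphocytes and limit the rejection of foreign tissue. Their lineage factor Foxp3 acts with other transcription factors to hold a programme that includes a high-affinity interleukin-2 receptor, costimulatory receptors of the TNF receptor family and enzymes that make adenosine. Several of these genes are also induced in conventional T cells on activation, so a single gene of the set does not mark the lineage by itself.

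The allogeneic library held 3500 barcodes and 8415043 UMIs (unique molecular identifiers, each standing for 1 captured transcript), and the syngeneic library held 7967 barcodes and 46486632 UMIs. The lowest UMI number of a barcode was 150 in the allogeneic and 3447 in the syngeneic library. After a filter on genes and mitochondrial UMIs, 2106 allogeneic and 7957 syngeneic cells remained. T cells were cells with a UMI of Cd3d, Cd3e or Cd3g and none of the B cell gene Cd79a, which gave 1382 allogeneic T cells (median 3486 UMIs) and 4847 syngeneic T cells (median 4776 UMIs). The Cd79a condition took out 15.1% of allogeneic and 35.2% of syngeneic barcodes with a Cd3 UMI. CD8 T cells were T cells with a Cd8a or Cd8b1 UMI and none of Cd4, 483 in the allogeneic and 2303 in the syngeneic library, and B cells had Cd79a and no Cd3 UMI, 250 and 436 cells in the allogeneic and syngeneic libraries. In T cells the summed level of 6 myeloid markers was 13796 CPM (CPM, the UMIs of a gene among each 1000000 UMIs of the class) in the allogeneic and 359 CPM in the syngeneic library, with all 6 seen in both. The 4 haemoglobin markers summed to 49038 CPM and 819 CPM in allogeneic and syngeneic T cells. In the allogeneic library 63 T cell barcodes had more than 1% of their UMIs from myeloid markers, and they held 93.4% of the S100a8 and S100a9 UMIs of T cells. Between the libraries 66 barcode sequences were shared, of which 21 were allogeneic and 28 syngeneic T cells.

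All 10 genes were located on the GRCm38 build in the GENCODE vM21 annotation. Tnfrsf4 (chr4:156013843-156016612) and Tnfrsf18 (chr4:156026164-156028895) are neighbours on the plus strand with 9551 bases between them and no coding gene in the gap. Gpr83 (chr9:14860210-14870789, plus strand) and Izumo1r (chr9:14885814-14903949, minus strand) are neighbours as well, with 15024 bases and no coding gene between them. Foxp3 lies at chrX:7573644-7595245, Il2ra at chr2:11642807-11693193, Ikzf2 on the minus strand at chr1:69531214-69687245, Nrp1 at chr8:128358604-128503363, Capg at chr6:72544391-72562983 and Nt5e at chr9:88327197-88372092.

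The stretch of 250 bases before the transcript start was read from RefSeq (GRCm38.p6) for 9 of the 10 genes, in 10 windows, since Foxp3 has 2 starts. Both Foxp3 windows and the Tnfrsf18 window are shown, because Foxp3 defines the cell class used below, and because of the 10 windows only the second Foxp3 window and the Tnfrsf18 window held a searched motif. The motifs were TGTTTAC (forkhead), TTCNNNGAA (STAT, the family that carries the interleukin-2 receptor signal) and GGAAAA (NFAT, which carries the T cell receptor signal), each on both strands. Capitals mark a match, and in the second Foxp3 window the STAT and NFAT matches overlap. Across all 32851 windows of the table, 7.02% held the STAT motif, 20.4% the NFAT motif and 3.17% the forkhead motif, which no window of the set held. The 3 windows shown lie wholly or partly inside the gene bounds given above, because those bounds also cover transcripts of the GENCODE annotation that start further upstream than the RefSeq starts used for the windows. These are matches of letters in a window and say nothing about binding.
Foxp3, first start, chrX:7579426-7579675, plus strand: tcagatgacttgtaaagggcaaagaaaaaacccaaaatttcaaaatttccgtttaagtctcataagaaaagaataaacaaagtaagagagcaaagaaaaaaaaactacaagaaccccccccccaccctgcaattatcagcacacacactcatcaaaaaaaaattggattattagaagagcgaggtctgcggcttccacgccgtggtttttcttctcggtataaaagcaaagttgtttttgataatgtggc
Foxp3, second start, chrX:7580233-7580482, plus strand: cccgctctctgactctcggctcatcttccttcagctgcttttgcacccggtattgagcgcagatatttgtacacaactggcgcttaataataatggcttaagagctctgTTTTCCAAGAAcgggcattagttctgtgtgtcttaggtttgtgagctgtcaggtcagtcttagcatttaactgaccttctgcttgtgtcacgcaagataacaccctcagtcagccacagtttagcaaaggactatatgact
Tnfrsf18, chr4:156026072-156026321, plus strand: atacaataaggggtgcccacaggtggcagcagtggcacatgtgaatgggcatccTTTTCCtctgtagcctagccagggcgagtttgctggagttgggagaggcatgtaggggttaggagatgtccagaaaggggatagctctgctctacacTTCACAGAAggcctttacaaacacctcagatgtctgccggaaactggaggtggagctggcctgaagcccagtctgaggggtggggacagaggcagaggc

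T cells of the allogeneic library carried more Foxp3, Gpr83, Nrp1 and Nt5e than T cells of the syngeneic library, each by more than 2-fold in summed level. Tnfrsf4, Il2ra, Tnfrsf18 and Izumo1r differed by less than 2-fold, and Ikzf2 and Capg had intervals that spanned no difference. In T cells with no Cd8 UMI the picture was different for 4 genes: Ikzf2, Capg and Izumo1r had intervals wholly below 0, and that of Il2ra spanned no difference, at a log2 ratio of 0.25 (-0.12 to 0.61). Foxp3 UMIs were seen in 122 of 1382 allogeneic T cells, or 8.83% (7.38% to 10.4%, Clopper-Pearson), and in 218 of 4847 syngeneic T cells, or 4.50% (3.93% to 5.12%). Of the 10 genes, 4 were at least 2-fold higher in the allogeneic library, beside 8.22% of the 9028 genes measured in T cells, and 0 were at least 2-fold lower, beside 3.09% of them. The median log2 ratio of the 10 genes was 0.54, against 0.03 over all measured genes. With barcodes left out whose UMIs were over 1% myeloid or over 5% haemoglobin markers, the Foxp3 share was 9.12% in the allogeneic and 4.50% in the syngeneic library, 4 genes were again at least 2-fold higher and the median was 0.71. Without the barcode sequences found in both libraries the shares were 8.89% in the allogeneic and 4.46% in the syngeneic library. Other settings gave smaller differences: 1 gene was at least 2-fold higher with cells of at least 3447 UMIs. The median was 0.26 in T cells with no Cd8 UMI.

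Foxp3, the lineage-defining forkhead factor, was at 33.6 CPM (29.0 to 38.9) in allogeneic and 13.7 CPM (12.3 to 15.2) in syngeneic T cells, a log2 ratio of 1.30 (1.03 to 1.56). Since deeper cells show a rare transcript more often, each cell was also thinned at random to a fixed number of UMIs. At 1000 UMIs per cell, 3.20% of 1283 allogeneic and 1.13% of 4847 syngeneic T cells had a Foxp3 UMI, with 99 shallower allogeneic cells left out. At 3000 UMIs the shares were 6.38% of 925 allogeneic and 2.87% of 4847 syngeneic T cells. The share was higher in the allogeneic library at both depths. The share of CD8 T cells differed, at 34.9% in the allogeneic and 47.5% in the syngeneic library, and those with at least 3 Cd8 UMIs were 23.4% and 39.3% of allogeneic and syngeneic T cells. Cd8 UMIs were also seen in 6.40% of allogeneic and 24.3% of syngeneic B cells, which should lack them. Among T cells with no Cd8 UMI the Foxp3 share was 10.6% of 831 allogeneic and 6.62% of 1919 syngeneic cells, and the log2 ratio of the Foxp3 level there was 1.15 (0.83 to 1.48).

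The background of Foxp3 was read in B cells, which should lack it, and its share was also read in CD8 T cells. In B cells 1 UMI was seen in 250 allogeneic cells (median 2246.5 UMIs), or 0.400% of cells, and 3 UMIs in 436 syngeneic cells (median 4164.5 UMIs), or 0.688% of cells. In CD8 T cells the share with a Foxp3 UMI was 4.76% in the allogeneic and 2.43% in the syngeneic library. In the CD8 T cells with at least 3 Cd8 UMIs, a stricter class added after seeing the data, it was 1.55% of 323 allogeneic cells (median 4284 UMIs) and 1.37% of 1904 syngeneic cells (median 5299.5 UMIs). Their Foxp3 level was 4.08 CPM in the allogeneic and 3.60 CPM in the syngeneic library, a log2 ratio of 0.18 with an interval of -1.35 to 1.43. The stricter CD8 class thus showed no difference in Foxp3 beyond its wide interval. The wider CD8 class is not read as background, since its 23 allogeneic and 56 syngeneic Foxp3-positive cells carried other genes of the set. Ikzf2 in those cells was at 138 CPM in the allogeneic and 420 CPM in the syngeneic library. All CD8 T cells had 24.4 CPM and 36.1 CPM of it in the allogeneic and syngeneic libraries. Nt5e alone was not higher, in the allogeneic library, at 14.5 CPM on 2 UMIs against 16.0 CPM.

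**Figure D1:**
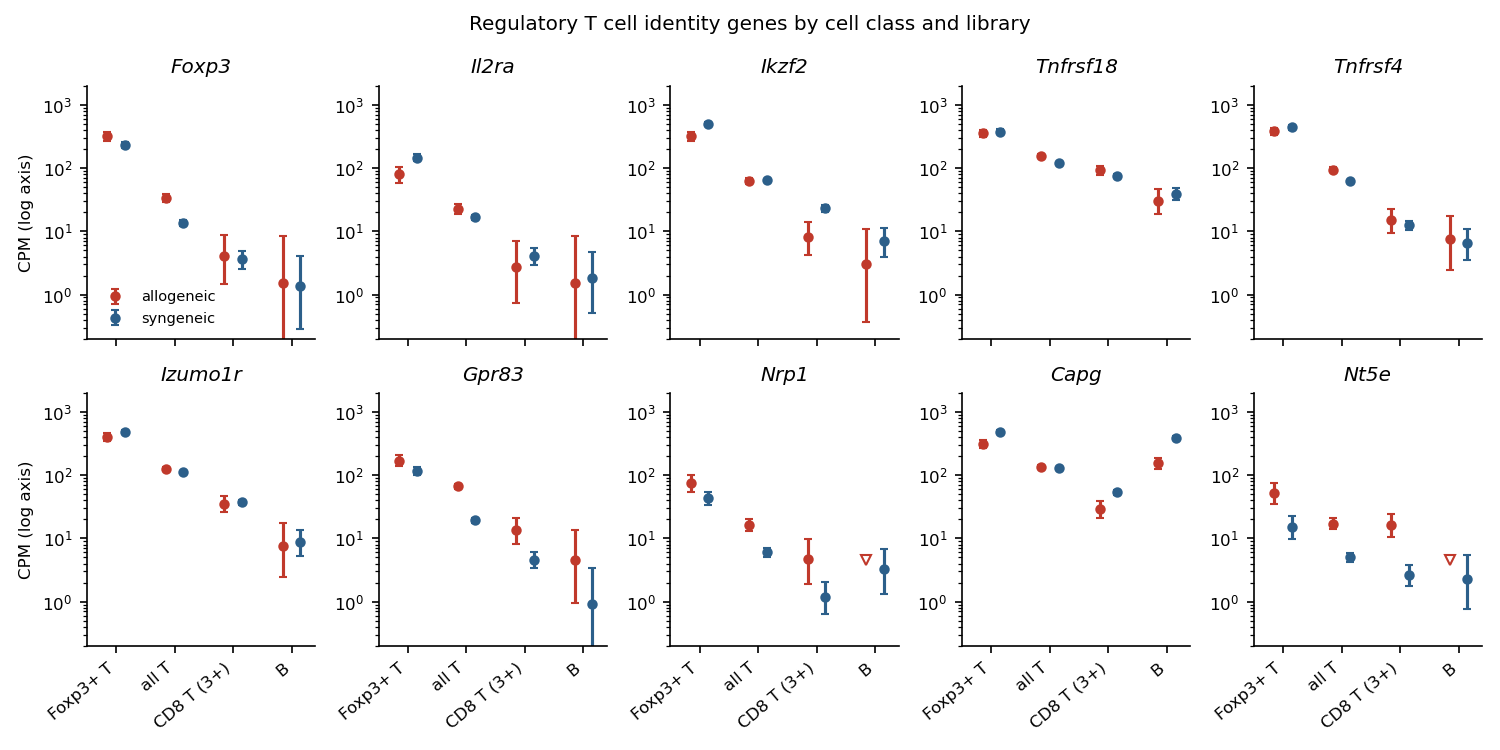
Summed level of each of the 10 genes (CPM, log axis) in T cells with a Foxp3 UMI, all T cells, CD8 T cells with at least 3 Cd8 UMIs and B cells, allogeneic in red and syngeneic in blue. Bars are exact 95% counting intervals of 1 library each, and open triangles mark the floor of 3 UMIs where 0 UMIs were seen. All 10 are highest in Foxp3-positive T cells, a class that Foxp3 itself defines, and Capg alone is above 100 CPM in B cells, at 154 CPM in allogeneic and 384 CPM in syngeneic B cells.

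Ikzf2 encodes Helios, an Ikaros-family factor of thymus-derived regulatory T cells. It was at 62.5 CPM (56.1 to 69.5) in allogeneic and 64.7 CPM (61.7 to 67.9) in syngeneic T cells, a log2 ratio of -0.05 (-0.22 to 0.12). T cells with an Ikzf2 UMI made up 11.0% in the allogeneic and 10.8% in the syngeneic library. The Ikzf2 interval spanned no difference in all T cells but depended on the cells used. The log2 ratio was -0.37 (-0.59 to -0.16) in T cells with no Cd8 UMI, -0.48 (-0.87 to -0.10) in T cells with a Cd4 and no Cd8 UMI, and -0.41 (-0.64 to -0.19) in cells with at least 3447 UMIs. After thinning to 1000 UMIs it was 0.52 (0.18 to 0.85). In the stricter CD8 class Ikzf2 was lower in the allogeneic library, at 8.15 CPM in allogeneic and 23.4 CPM in syngeneic cells, a log2 ratio of -1.52 (-2.49 to -0.69) on 12 and 253 UMIs in allogeneic and syngeneic cells.

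Among the receptors, Il2ra, the alpha chain that gives the interleukin-2 receptor its high affinity, was at 22.9 CPM (19.0 to 27.2) in allogeneic and 16.8 CPM (15.2 to 18.4) in syngeneic T cells, a log2 ratio of 0.45. Its UMIs were seen in 4.92% of allogeneic and 4.60% of syngeneic T cells. Tnfrsf18, the costimulatory receptor GITR, was the most widely seen gene of the set, in 37.6% of allogeneic and 38.8% of syngeneic T cells. Its level was 155 CPM (145 to 166) in allogeneic and 119 CPM (115 to 123) in syngeneic T cells, a log2 ratio of 0.38. Its neighbour Tnfrsf4, the costimulatory receptor OX40, was at 94.9 CPM (86.9 to 103) in allogeneic and 61.6 CPM (58.7 to 64.7) in syngeneic T cells, a log2 ratio of 0.62. Both costimulatory receptors were modestly higher in the allogeneic library, with intervals that did not overlap.

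Tnfrsf18 was not confined to Foxp3-positive cells. In the stricter CD8 class 31.9% of the allogeneic and 33.1% of the syngeneic cells had a UMI of it. B cells had 30.6 CPM of Tnfrsf18 in the allogeneic and 38.9 CPM in the syngeneic library. Tnfrsf4 in B cells was at 7.64 CPM in the allogeneic and 6.49 CPM in the syngeneic library.

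Izumo1r encodes folate receptor 4, which is abundant on regulatory T cells. Its level was 125 CPM (115 to 134) in allogeneic and 112 CPM (108 to 116) in syngeneic T cells, a log2 ratio of 0.16, which turned to -0.23 (-0.38 to -0.08) in T cells with no Cd8 UMI. Gpr83, a G protein-coupled receptor whose transcript is enriched in regulatory T cells, lies next to Izumo1r and behaved differently. It was at 66.4 CPM (59.7 to 73.6) in allogeneic and 19.5 CPM (17.8 to 21.3) in syngeneic T cells, a log2 ratio of 1.77 (1.57 to 1.96). Its share of T cells was 14.3% in the allogeneic and 6.29% in the syngeneic library, and after thinning to 1000 UMIs 6.78% and 1.90% in allogeneic and syngeneic T cells.

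Nrp1, the semaphorin and VEGF receptor neuropilin-1 carried by thymus-derived regulatory T cells, was at 16.3 CPM (13.1 to 20.0) in allogeneic and 6.03 CPM (5.13 to 7.05) in syngeneic T cells, a log2 ratio of 1.43. Nt5e encodes CD73, the ectoenzyme that makes adenosine from AMP. It was at 17.2 CPM (13.9 to 21.0) in allogeneic and 5.04 CPM (4.22 to 5.98) in syngeneic T cells, a log2 ratio of 1.77. No Nrp1 or Nt5e UMI was seen in 250 allogeneic B cells, which allows up to 4.59 CPM at the floor of 3 UMIs, and the syngeneic B cells had 3.24 CPM of Nrp1 and 2.32 CPM of Nt5e.

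Capg encodes an actin-capping protein of the gelsolin family that is abundant in myeloid cells. Its level was 135 CPM (125 to 145) in allogeneic and 132 CPM (128 to 137) in syngeneic T cells, a log2 ratio of 0.03 (-0.09 to 0.14). That ratio was -0.28 (-0.43 to -0.14) in T cells with no Cd8 UMI and 0.22 (0.10 to 0.35) in cells with at least 3447 UMIs. B cells carried as much or more, at 154 CPM in the allogeneic and 384 CPM in the syngeneic library. Capg was at 192 CPM in 60 allogeneic and 187 CPM in 22 syngeneic barcodes with myeloid markers but no Cd3 or Cd79a UMI. Cd8 UMIs were seen in 6.67% of these allogeneic and 77.3% of these syngeneic barcodes. The syngeneic value is therefore not a level of myeloid cells free of T cell transcripts. Of the 10 genes Capg was the one that the B cell background did not separate from T cells.

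The 3 genes that were more than 2-fold higher beside Foxp3 were also higher in the stricter CD8 class and in T cells without a Foxp3 UMI. The CD8 class was not chosen by Foxp3, and 5 of its 323 allogeneic and 26 of its 1904 syngeneic cells had a Foxp3 UMI. In the stricter CD8 class, Gpr83 was at 13.6 CPM in the allogeneic and 4.62 CPM in the syngeneic library, a log2 ratio of 1.56 (0.73 to 2.33). Nt5e there was at 16.3 CPM in the allogeneic and 2.68 CPM in the syngeneic library, a log2 ratio of 2.61 (1.76 to 3.44). Nrp1 there was at 4.75 CPM in the allogeneic and 1.20 CPM in the syngeneic library, a log2 ratio of 1.99 (0.42 to 3.42) on 7 and 13 UMIs in allogeneic and syngeneic cells. In T cells without a Foxp3 UMI, Gpr83 was at 54.2 CPM in the allogeneic and 13.4 CPM in the syngeneic library, a log2 ratio of 2.01 (1.77 to 2.25). The log2 ratios in these cells were 1.36 (0.82 to 1.89) for Nrp1 and 1.58 (1.11 to 2.04) for Nt5e. The libraries differ in depth, and both were also limited to cells with at least 3447 UMIs. This left 715 of the 1382 allogeneic and all 4847 syngeneic T cells, so it also changed which cells were compared, and the part of depth itself was not tested. The log2 ratios in T cells were then 0.95 for Foxp3, 0.87 for Gpr83, 0.74 for Nrp1 and 1.42 for Nt5e, and 1 gene in place of 4 was at least 2-fold higher.

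T cells with a Foxp3 UMI were then compared between the libraries, which sets aside how many such cells there are. They numbered 122 in the allogeneic library (median 3578.5 UMIs, 578016 UMIs in sum) and 218 in the syngeneic library (median 5095.5 UMIs, 1558917 UMIs in sum). More than 1 Foxp3 UMI was seen in 40 of the allogeneic and 82 of the syngeneic cells, and the highest number in a cell was 6 in the allogeneic and 8 in the syngeneic library. Cd4 UMIs were present in 32.0% of the allogeneic and 43.1% of the syngeneic Foxp3-positive T cells, against 25.3% and 33.9% of allogeneic and syngeneic T cells without Foxp3. Cd8 UMIs were present in 27.9% of the allogeneic and 41.7% of the syngeneic Foxp3-positive T cells. The shares were higher in T cells without Foxp3, at 41.0% in the allogeneic and 61.3% in the syngeneic library. In the shallower B cells, read as background, the shares with a Cd8 UMI were 6.40% in the allogeneic and 24.3% in the syngeneic library.

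Within Foxp3-positive T cells the genes of the set went different ways. Nt5e was the gene with the largest difference, and Nrp1 and Gpr83 were higher as well in the allogeneic library, while Il2ra, Ikzf2 and Capg were lower. Of the 9 genes other than Foxp3, 1 was at least 2-fold higher, beside 6.33% of 4927 measured genes, and 0 were at least 2-fold lower, beside 5.54%. The median log2 ratio of the 9 genes was -0.20, against -0.05 over all measured genes. That median is close to no difference and its sign turned to 0.14 with T cells gated by more Cd3 than B cell UMIs and to 0.01 with barcodes rich in myeloid or haemoglobin markers left out.

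Nt5e was at 51.9 CPM (35.0 to 74.1) in allogeneic and 15.4 CPM (9.86 to 22.9) in syngeneic Foxp3-positive T cells, a log2 ratio of 1.75 (0.93 to 2.59), and it was seen in 20.5% and 8.72% of allogeneic and syngeneic cells. Nrp1 was at 74.4 CPM (53.8 to 100.2) in allogeneic and 43.6 CPM (33.9 to 55.3) in syngeneic cells, a log2 ratio of 0.77 (0.18 to 1.34). Gpr83 was at 170 CPM (138 to 207) in allogeneic and 115 CPM (99.2 to 134) in syngeneic cells, a log2 ratio of 0.55 (0.18 to 0.92). The Gpr83 ratio turned to -0.15 (-0.66 to 0.34) when only cells with at least 3447 UMIs were used.

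Il2ra was at 79.6 CPM (58.3 to 106) in allogeneic and 148 CPM (129 to 168) in syngeneic Foxp3-positive T cells, a log2 ratio of -0.89 (-1.38 to -0.43). A UMI of it was found in 20.5% of the allogeneic cells and 41.3% of the syngeneic cells. Such shares within Foxp3-positive T cells were not thinned, and the allogeneic cells were shallower, at a median of 3578.5 against 5095.5 UMIs. The part of depth in these shares was not tested. Of the 230 syngeneic Il2ra UMIs in these cells, 29 came from 1 cell, and the highest allogeneic cell had 7. Outside them the order was the other way, with 16.2 CPM (12.8 to 20.1) in allogeneic and 8.48 CPM (7.37 to 9.71) in syngeneic T cells without a Foxp3 UMI, a log2 ratio of 0.93 (0.54 to 1.31). The interval lay wholly below 0 in the first class and wholly above 0 in the second.

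Ikzf2 was at 318 CPM (274 to 368) in allogeneic and 503 CPM (468 to 539) in syngeneic Foxp3-positive T cells, a log2 ratio of -0.66 (-0.90 to -0.43). Without thinning, 54.9% of allogeneic and 67.9% of syngeneic cells had a UMI of Ikzf2. Capg was at 317 CPM in allogeneic and 477 CPM in syngeneic cells, a log2 ratio of -0.59, which turned to 0.80 when the level of B cells of the same library was subtracted. Izumo1r was at 405 CPM and 484 CPM in allogeneic and syngeneic cells, a log2 ratio of -0.26 (-0.48 to -0.05), which turned to 0.14 with the gate by more Cd3 than B cell UMIs. Tnfrsf18, at 356 CPM and 378 CPM, and Tnfrsf4, at 384 CPM and 442 CPM in allogeneic and syngeneic cells, had intervals that spanned no difference. The Tnfrsf4 log2 ratio of -0.20 was -0.50 (-0.92 to -0.10) after thinning to 3000 UMIs. It was -1.11 (-2.25 to -0.17) when cells with further B cell and myeloid genes were left out, on 16 allogeneic and 124 syngeneic cells. The Tnfrsf18 log2 ratio of -0.09 was -0.43 (-0.73 to -0.15) in cells with at least 3447 UMIs. Haemoglobin and myeloid markers moved with the library in this class too: the myeloid sum was 22780 CPM in allogeneic cells, 3 of which had more than 1% of such UMIs, and 210 CPM in syngeneic cells, where C1qa and C1qb were at 0. The haemoglobin sum was 30925 CPM in allogeneic and 30.8 CPM in syngeneic Foxp3-positive T cells. Taking haemoglobin UMIs out of the totals, or leaving these barcodes out, kept the sign for Il2ra, Ikzf2, Nrp1 and Nt5e.

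**Figure D2:**
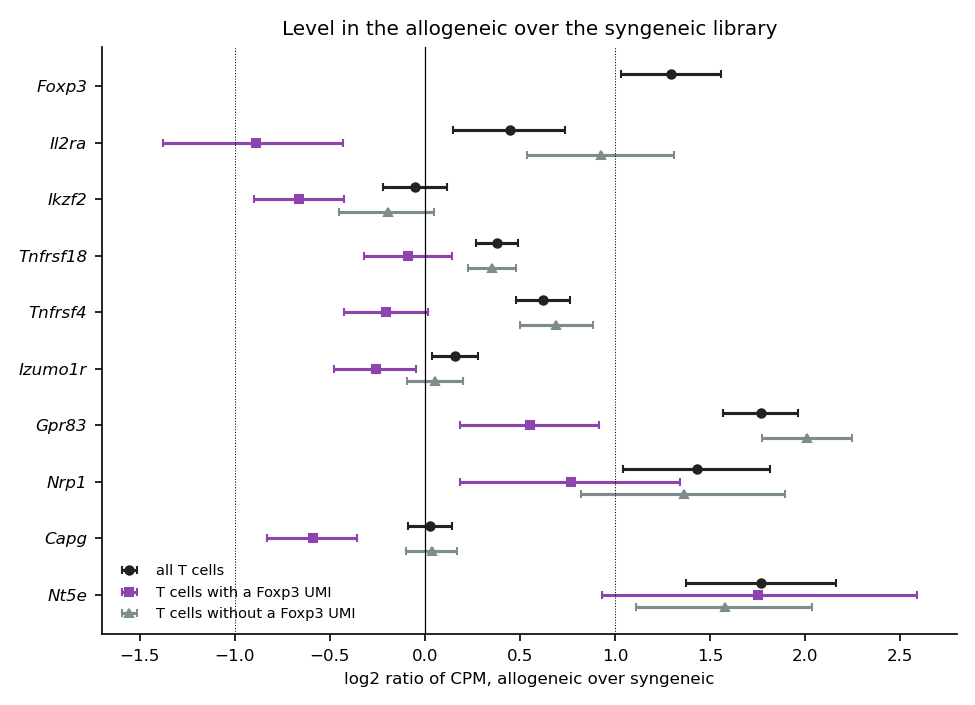
Log2 ratio of the level in the allogeneic over the syngeneic library for each gene in all T cells (black), T cells with a Foxp3 UMI (purple) and T cells without one (grey), with exact 95% counting intervals; dotted lines mark a 2-fold difference. Nt5e lies at 1.77 in all T cells, 1.75 in Foxp3-positive and 1.58 in Foxp3-negative T cells, while Il2ra lies at -0.89 in Foxp3-positive and at 0.93 in Foxp3-negative T cells.

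Co-expression was read next, in T cells with over T cells without a Foxp3 UMI. In both libraries all 9 other genes were at least 2-fold higher in Foxp3-positive than in Foxp3-negative T cells, beside 4.66% of 7465 measured genes in the allogeneic library and 6.87% of 8969 in the syngeneic library. The number was 8 in the allogeneic library, without Gpr83 (log2 ratio 0.81), when cells with further B cell and myeloid genes were left out. It was 8 in both libraries when the B cell level was subtracted, since Capg in Foxp3-negative T cells was below that level and gave no ratio. The median log2 ratio of the 9 genes was 2.14 in the allogeneic and 3.10 in the syngeneic library, against 0.11 and 0.14 over all measured genes in the allogeneic and syngeneic libraries. Ikzf2 was at 318 CPM in Foxp3-positive and 32.3 CPM in Foxp3-negative T cells of the allogeneic library, a 9.85-fold difference, and at 503 CPM and 37.0 CPM in Foxp3-positive and Foxp3-negative T cells of the syngeneic library, a 13.6-fold difference. Il2ra was 4.93-fold higher in allogeneic and 17.4-fold higher in syngeneic Foxp3-positive than Foxp3-negative T cells. Gpr83 was 3.13-fold higher in the allogeneic and 8.60-fold higher in the syngeneic library. The ratios of Tnfrsf18 were the lowest in the allogeneic library, 2.72-fold, where it was at 356 CPM in Foxp3-positive and 131 CPM in Foxp3-negative T cells.

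Against CD8 T cells with at least 3 Cd8 UMIs the ratios were larger for 8 of the 9 genes in the allogeneic library, except Nt5e, and for all 9 in the syngeneic library. Il2ra was 29.3-fold higher in allogeneic and 36.3-fold higher in syngeneic Foxp3-positive T cells than in this class, and Tnfrsf4 was 25.7-fold higher in allogeneic and 35.4-fold higher in syngeneic ones. Nt5e was 3.18-fold higher in the allogeneic library, where the CD8 class had 16.3 CPM of it, and 5.75-fold higher in the syngeneic library.

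The rank of each gene among 5737 genes with at least 10 UMIs in Foxp3-positive T cells of each library was taken from the lower of its 2 log2 ratios, Foxp3-positive over Foxp3-negative. Ikzf2 was ranked 1, Nrp1 2, Tnfrsf4 8, Il2ra 26, Izumo1r 34, Nt5e 51, Gpr83 72, Capg 94 and Tnfrsf18 102. The 10 UMIs were asked only in Foxp3-positive T cells, so a rare gene was ranked only when seen often enough in that class. Of the 10 highest ranked genes 3 belonged to the set. The other 7 were Ccnb2 (a mitotic cyclin), Rrm2 (a ribonucleotide reductase subunit), Ctla4 (an inhibitory receptor of regulatory T cells), Itih5, 2810417H13Rik, Birc5 (survivin, a mitotic protein) and Slc22a15. Ctla4 was at 353 CPM in Foxp3-positive and 47.8 CPM in Foxp3-negative T cells of the allogeneic library, and at 96.9 CPM and 5.03 CPM in Foxp3-positive and Foxp3-negative T cells of the syngeneic library. Rrm2 was at 65.7 CPM in Foxp3-positive and 4.50 CPM in Foxp3-negative allogeneic T cells, and at 126 CPM and 17.1 CPM in the same classes of the syngeneic library. In all, 185 genes were at least 2-fold higher in both libraries.

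**Figure D3:**
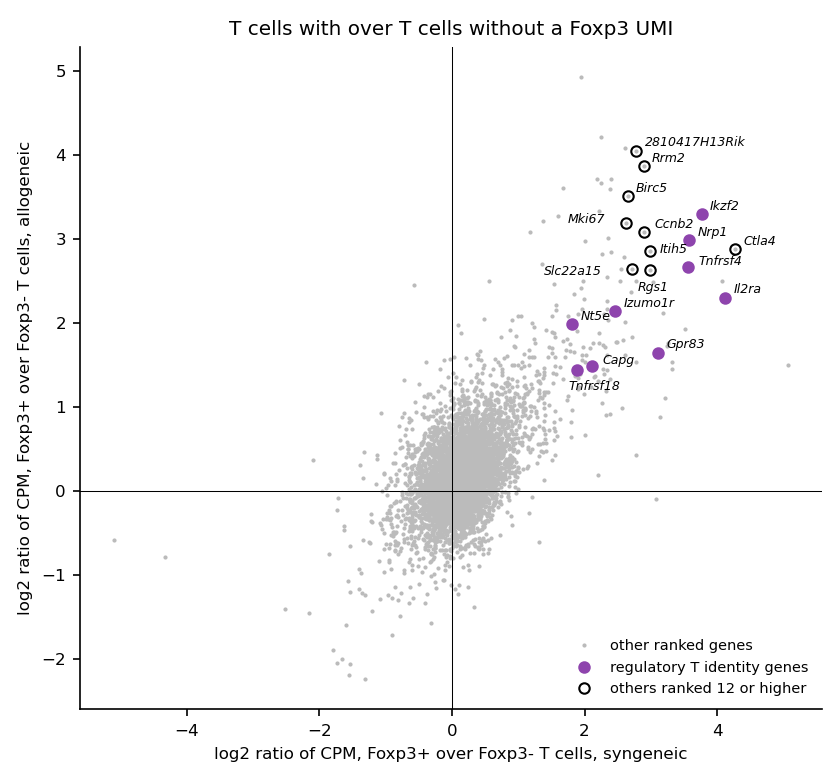
Log2 ratio of the level in T cells with over T cells without a Foxp3 UMI for 5737 genes, syngeneic library on the horizontal and allogeneic library on the vertical axis. The 9 other genes of the set (purple) lie to the upper right, from Tnfrsf18 at 1.44 to Ikzf2 at 3.30 on the vertical axis, among other genes such as Rrm2 and Birc5 (open circles).

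The number of the 9 other genes seen in a single cell was counted after thinning each cell to 3000 UMIs. At least 4 of the 9 genes were seen in 33 of 59 allogeneic Foxp3-positive T cells, or 55.9% (42.4% to 68.8%), and in 81 of 139 syngeneic ones, or 58.3% (49.6% to 66.6%). In Foxp3-negative T cells the share was 5.43% of 866 allogeneic and 3.50% of 4708 syngeneic cells. Both classes were set here by the Foxp3 UMIs left after thinning. The Foxp3-negative class thus also holds cells that had a Foxp3 UMI before thinning, and their part in its share was not tested. In the stricter CD8 class it was 0.337% of 297 allogeneic and 0.368% of 1904 syngeneic cells, and in B cells 0 of 46 allogeneic and 0 of 436 syngeneic cells, whose upper 95% limits are 7.71% and 0.843%. The share in Foxp3-positive cells differed by less than its counting interval between the libraries.

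Without thinning, 159 of 1382 allogeneic T cells, or 11.5%, and 391 of 4847 syngeneic T cells, or 8.07%, had at least 4 of the 9 genes. A Foxp3 UMI was seen in 80 of those 159 allogeneic cells, or 50.3% (42.3% to 58.3%), and in 155 of those 391 syngeneic cells, or 39.6% (34.8% to 44.7%). The cells with at least 4 genes made up 65.6% of allogeneic and 71.1% of syngeneic Foxp3-positive T cells. Many cells with at least 4 of the 9 genes therefore had no Foxp3 UMI. The median was 3289 UMIs in allogeneic and 5430 UMIs in syngeneic cells with at least 4 genes.

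**Figure D4:**
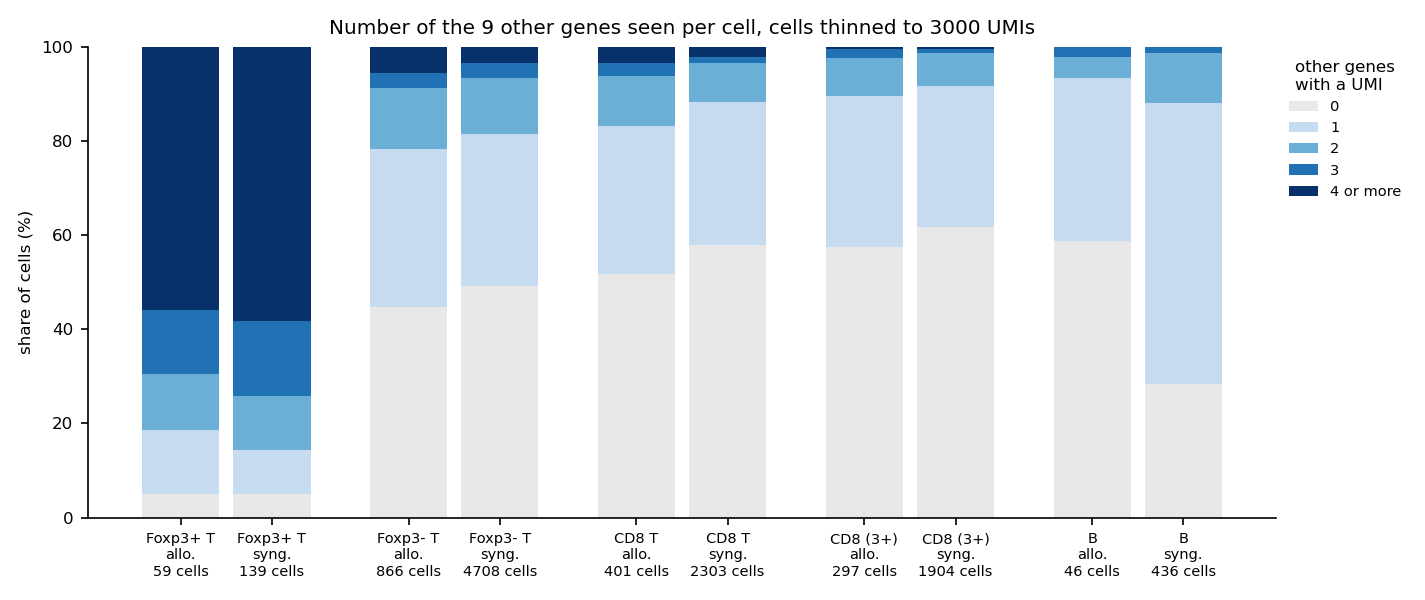
Share of cells (%) by the number of the 9 genes other than Foxp3 with a UMI, after thinning each cell to 3000 UMIs, in 5 classes, allogeneic left of syngeneic; cell numbers stand under the bars, and CD8 (3+) has at least 3 Cd8 UMIs. The darkest part, 4 or more genes, takes 55.9% and 58.3% of allogeneic and syngeneic Foxp3-positive T cells and 5.43% and 3.50% of Foxp3-negative ones. Foxp3-positive and Foxp3-negative refer to the UMIs left after thinning.

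Pairs of genes were compared in the same way, each gene measured in T cells with and without a UMI of the other, and the log2 ratios of both directions averaged. All 45 pairs had a positive mean in both libraries, 41 of them at least 2-fold in the allogeneic and 44 in the syngeneic library. Pairs of genes outside the set were not computed, so these counts have no share beside them and are not read as particular to the set. The highest pair was Ikzf2 with Nrp1 (3.68) in the allogeneic library, followed by Foxp3 with Ikzf2 (3.39). In the syngeneic library Foxp3 with Il2ra and Foxp3 with Ikzf2 were both at 4.04. Capg was in the lowest pairs, at 0.02 with Gpr83 in the allogeneic and 0.92 with Tnfrsf18 in the syngeneic library. In the allogeneic library the Capg level in T cells with over T cells without a Gpr83 UMI was -0.11 (-0.45 to 0.21). The neighbours Tnfrsf4 and Tnfrsf18 had a mean of 1.92 in the allogeneic library and the neighbours Gpr83 and Izumo1r one of 2.04, both below the highest pairs. Foxp3 with Il2ra was at 2.24 in the allogeneic and 4.04 in the syngeneic library. These ratios share cells and libraries and are given as a description.

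**Figure D5:**
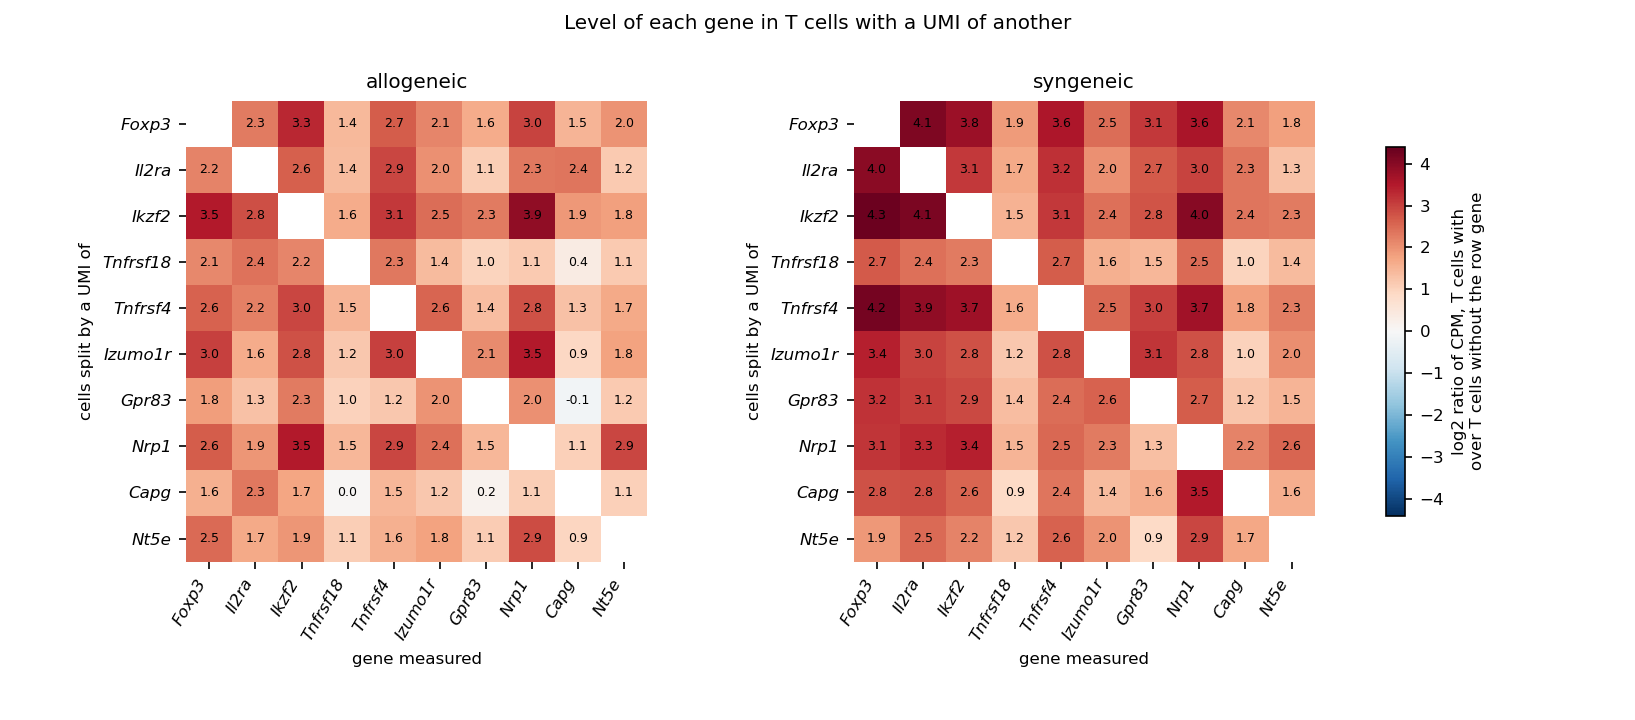
Log2 ratio of the level of the column gene in T cells with over T cells without a UMI of the row gene, allogeneic library on the left and syngeneic on the right, in red where positive. The Ikzf2 and Nrp1 entries lead in the allogeneic panel and the Foxp3, Il2ra and Ikzf2 entries in the syngeneic panel, and Capg has the palest entries in the allogeneic panel.

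Other genes of the pathway were read from 6 lists. Their counts stand beside the shares over all measured genes, which between the libraries were 8.22% higher and 3.09% lower in T cells, and 6.33% higher and 5.54% lower in Foxp3-positive T cells. Between Foxp3-positive and Foxp3-negative T cells the shares were 4.66% higher and 3.60% lower in the allogeneic library, and 6.87% higher and 3.18% lower in the syngeneic library. Of 18 genes associated with regulatory T cells, 12 were measured in T cells between the libraries, and 4 were at least 2-fold higher in the allogeneic library and 0 lower, beside 8.22% and 3.09% of all measured genes, with a list median of 0.56 against 0.03 over all. These 4 were Ctla4, at 80.1 CPM in allogeneic and 10.5 CPM in syngeneic T cells, Ebi3 (a subunit of an inhibitory cytokine), Rgs1 (a regulator of G protein signalling) and Prdm1 (the factor Blimp-1). Of them, Ebi3 and Prdm1 reached the 5 CPM needed only in the allogeneic library, with 2.90 CPM and 2.52 CPM in syngeneic T cells. Within Foxp3-positive T cells, Ctla4 was at 353 CPM in allogeneic and 96.9 CPM in syngeneic cells, a log2 ratio of 1.87 (1.55 to 2.18), and Rgs1 at 377 CPM in allogeneic and 187 CPM in syngeneic cells, a log2 ratio of 1.01. The list median there was -0.26 over 11 measured genes, with 2 higher and Klrg1 lower. Ctla4 was thus higher in this class, as Nt5e was, while Il2ra was lower. The Ctla4 difference was not particular to this class, since Foxp3-negative T cells had 47.8 CPM in the allogeneic and 5.03 CPM in the syngeneic library. Of the same list, 10 of 10 measured genes in the allogeneic and 13 of 13 in the syngeneic library were at least 2-fold higher in Foxp3-positive than in Foxp3-negative T cells, beside 4.66% and 6.87% of all measured genes in the allogeneic and syngeneic libraries. Among them were Icos (a costimulatory receptor), Cd81 (a tetraspanin), Itgae (the integrin CD103), Ikzf4 (the factor Eos) and Il2rb. The 5 CPM needed could be met in either class, so these counts depend in part on that filter. In the syngeneic library Ebi3, Klrg1 and Prdm1 met it only in Foxp3-positive T cells. Their Foxp3-negative levels were 2.35 CPM, 2.03 CPM and 1.87 CPM. Tigit, Lrrc32, Il10, Entpd1 and Ccr8 were not measured in either library.

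The interleukin-2 pathway keeps regulatory T cells alive through the receptor that Il2ra completes. Of its 11 listed genes, all measured in T cells, 3 were at least 2-fold higher in the allogeneic library and 0 lower, beside 8.22% and 3.09% of all measured genes, with a median of 0.59. Il2 itself was at 37.9 CPM in allogeneic and 16.3 CPM in syngeneic T cells, Cish (a feedback inhibitor induced by STAT5) at 34.6 CPM in allogeneic and 12.4 CPM in syngeneic T cells, and Socs3 (a feedback inhibitor of cytokine receptors) at 217 CPM in allogeneic and 40.2 CPM in syngeneic T cells. In Foxp3-positive T cells Socs3 was at 251 CPM in allogeneic and 46.8 CPM in syngeneic cells, and it was the 1 gene of 10 measured that was at least 2-fold higher, with 0 lower. Il2rb, the beta chain, was at 149 CPM in allogeneic and 98.8 CPM in syngeneic Foxp3-positive T cells, a log2 ratio of 0.59 (0.19 to 0.98), while Il2ra was lower there. Bcl2, a survival gene downstream of the receptor, was at 637 CPM in allogeneic and 378 CPM in syngeneic Foxp3-positive T cells, a log2 ratio of 0.75. The kinase gene Jak1, which the receptor chains bind, had a log2 ratio of 0.06 (-0.19 to 0.30) there. In all T cells the log2 ratio was 0.59 (0.40 to 0.77) for Il2rb and 0.75 (0.69 to 0.80) for Bcl2, so neither difference was particular to Foxp3-positive T cells. Cish was 3.56-fold higher in allogeneic and 6.56-fold higher in syngeneic Foxp3-positive than Foxp3-negative T cells. The common chain Il2rg was at 296 CPM in Foxp3-positive and 328 CPM in Foxp3-negative allogeneic T cells, and at 251 CPM and 278 CPM in the same syngeneic classes.

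The list of ligands and signalling partners of the receptors had 6 of 10 genes measured in T cells, of which Il2 alone was at least 2-fold higher in the allogeneic library and 0 lower, with a median of -0.12. Tnfsf4 and Tnfsf18, the ligands of OX40 and GITR, did not reach the level needed. Traf1, Traf2 and Traf5, adaptors of the TNF receptor family, had log2 ratios of -0.32, -0.39 and -0.33. In Foxp3-positive T cells 3 genes of this list were measured and 0 were past 2-fold, with a median of -0.24. Of 15 listed regulators and partners of Foxp3, 15 were measured in T cells, with 0 at least 2-fold higher, 0 lower and a median of -0.02, and in Foxp3-positive T cells 11 with 0 higher, 0 lower and a median of 0.04. In Foxp3-positive T cells the log2 ratio was 0.04 for Foxp1, a forkhead relative of Foxp3, -0.58 for the chromatin organiser Satb1, 0.17 for Ikzf1, the Ikaros gene itself, and -0.13 for Foxo1, which promotes Foxp3 transcription. Gata3, a T helper factor that binds together with Foxp3, was at 77.6 CPM in Foxp3-positive and 36.3 CPM in Foxp3-negative T cells of the syngeneic library, the 1 gene of 15 past 2-fold there. In the allogeneic library 14 of this list were measured between those classes, and Runx3 was the 1 gene at least 2-fold lower in Foxp3-positive cells.

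Of 8 genes of resting and central T cells, 0 were at least 2-fold higher or lower between the libraries in T cells, and Il7r (the interleukin-7 receptor alpha chain) was the 1 that passed in Foxp3-positive T cells, at 353 CPM in allogeneic and 121 CPM in syngeneic cells. The transcription factor Klf2 had a log2 ratio of 0.53 (0.38 to 0.68) in that class and the lymph node homing receptor Ccr7 0.60 (0.33 to 0.87), while Lef1, a factor of resting T cells, had a log2 ratio of 0.03 with an interval that spanned no difference. Il7r, which is kept low on regulatory T cells, was at 353 CPM in Foxp3-positive and 539 CPM in Foxp3-negative T cells of the allogeneic library, and at 121 CPM and 288 CPM in the same classes of the syngeneic library. Tcf7, a factor of resting T cells, was the 1 gene of this list at least 2-fold lower in Foxp3-positive than Foxp3-negative T cells of the allogeneic library, and Il7r in the syngeneic library. Of 6 genes of conventional T cells, which also include Il7r, 2 in the allogeneic library (Igfbp4 and Dapl1) and 4 in the syngeneic library (Igfbp4, Dapl1, Pde3b and Il7r) were at least 2-fold lower in Foxp3-positive T cells, beside 3.60% of all measured genes in the allogeneic and 3.18% in the syngeneic library. Dapl1 was at 69.2 CPM in Foxp3-positive and 290 CPM in Foxp3-negative allogeneic T cells, and at 185 CPM and 535 CPM in the same syngeneic classes. Igfbp4 was at 118 CPM in Foxp3-positive and 474 CPM in Foxp3-negative allogeneic T cells, and at 115 CPM and 364 CPM in the same syngeneic classes. Actn1 (an actin crosslinker) was below 2-fold in both libraries, with log2 ratios of -0.36 in the allogeneic and -0.76 in the syngeneic library. Between the libraries Cd40lg, the ligand that helper T cells show to B cells, was the 1 gene of this list at least 2-fold lower in allogeneic T cells, at 17.9 CPM in allogeneic and 36.5 CPM in syngeneic cells. In Foxp3-positive T cells 5 of this list were measured, of which Il7r was at least 2-fold higher and Dapl1 and Cd40lg lower in the allogeneic library.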

How the data were processed

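Lymph node cells of 1 allogeneic and 1 syngeneic heart graft group were profiled, and per the labels' protocols libraries came from a Chromium single-cell 3′ v3 kit. Whole-number UMI counts per gene and barcode, without normalisation, were deposited by the authors for each library. The submitters' processing notes name the mm10 build, Seurat 2.3.4, Cell Ranger 2.2.0 and STAR. The rule by which barcodes were selected is not given in the sources used.

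Barcodes were kept where 200 or more genes were seen and mitochondrial UMIs made up no more than 10% (Python 3.11.15, numpy 2.4.6, scipy 1.17.1, pandas 2.3.3). UMIs were summed per library and class and divided by all UMIs of the class (CPM). Ratios have exact 95% intervals that condition on the 2 counts, shares have Clopper-Pearson intervals, and intervals and floors cover counting error only. A ratio against 0 used a floor of 3 UMIs over the class. Genes measured had at least 50 UMIs over both sums and 5 CPM in either, and a call was a 2-fold difference. The ratio code was tested on simulated data. Cells were thinned to 1000 or 3000 UMIs with a fixed random seed. Scrublet in scanpy 1.11.5 marked 15 of 2106 allogeneic and 0 of 7957 syngeneic cells, so it did not work on the syngeneic library, and doublets were left in.

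Members and lists were chosen with earlier results of these data known. Named genes were the 10 members, up to 4 genes per list with the highest CPM in Foxp3-positive T cells, and the 10 genes most like Foxp3, of which 1 list gene is not reported here; list genes past 2-fold, Itgae, Ikzf4, Gata3 and the 2 genes ranked next to these 10 in the plot were chosen after their values were seen. The classes with at least 3 Cd8 UMIs or no Cd8 UMI were also added after seeing the data. Alternatives covered the cell filter, depth, the T cell gate, doublets, scaling and background subtraction.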

Additional observations from a re-analysis of the deposited data

Results flagged for a closer look

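Il2ra, the interleukin-2 receptor alpha chain, had opposite directions in T cells with and without a Foxp3 UMI. The log2 ratio of the allogeneic over the syngeneic library was -0.89 (-1.38 to -0.43) in Foxp3-positive T cells and 0.93 (0.54 to 1.31) in Foxp3-negative T cells, which is what drew attention to it. The difference between the 2 classes was not tested, since each group is 1 library. In Foxp3-positive T cells the ratio stayed below 0 in all 15 alternatives, and was nearest to 0 at -0.57. The ratio in Foxp3-negative T cells was not recomputed in these alternatives. In that class 79 of 1260 allogeneic and 236 of 4629 syngeneic cells had at least 4 of the 9 other genes. With Foxp3 disregarded, the ratio was 0.45 (0.15 to 0.74) in all T cells. It was -0.41 (-1.21 to 0.31) in T cells with a Cd4 and no Cd8 UMI and -0.07 (-0.86 to 0.63) in CD8 T cells.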

How the results depend on the processing

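A value was taken as close where it lay within the interval of the reported value (counts: within 1.5 times), and as reversed where it had the other sign and the reported interval was clear of 0. Of 110 recomputed values that answer a comparison, 101 stayed close, 9 moved and 0 reversed. The Foxp3-positive share of T cells depended on depth and gate: it was 3.20% in allogeneic and 1.13% in syngeneic cells thinned to 1000 UMIs, 6.38% and 2.87% at 3000 UMIs, and 10.6% and 6.62% in T cells with no Cd8 UMI. Members at least 2-fold higher in allogeneic T cells numbered 1 in place of 4 with cells of at least 3447 UMIs, and their median log2 ratio was 0.26 in T cells with no Cd8 UMI. The median in Foxp3-positive T cells, for which the medians of the interval bounds span 0, had the other sign in 2 of 15 alternatives, 0.14 with T cells gated by more Cd3 than B cell UMIs and 0.01 without barcodes rich in myeloid or haemoglobin markers. Of 283 recomputed single genes, 215 stayed close, 63 moved and 5 reversed. Those 5 were Izumo1r in T cells (-0.067 with cells of at least 3447 UMIs, -0.23 with no Cd8 UMI), Izumo1r in Foxp3-positive T cells (0.14, Cd3 gate), Gpr83 in Foxp3-positive T cells (-0.15, at least 3447 UMIs) and Capg in Foxp3-positive T cells (0.80, B cell level subtracted). A further 24 of the 59 recomputed values of genes whose reported interval spans 0 had the other sign: Ikzf2 in T cells ranged over -0.41 to 0.52, Capg in T cells over -0.48 to 0.22, Tnfrsf18 in Foxp3-positive T cells over -0.43 to 0.45 and Tnfrsf4 there over -1.11 to 0.03. The cause was not tested. Settings with thinning to 3000 UMIs, the Cd3 gate, no Cd8 UMI, shared barcodes and other-cell markers were chosen after seeing the data. Excluding further B cell and myeloid genes left 158 allogeneic and 2911 syngeneic T cells. Median-of-ratios scaling moved the median of all genes in T cells to 0.06. Capg in T cells with the B cell level subtracted and Nrp1 in Foxp3-positive T cells thinned to 1000 UMIs gave no value. No paired analysis was possible because each group is 1 library. Depth limits the rare genes: Nt5e rests on 30 allogeneic and 24 syngeneic UMIs in Foxp3-positive T cells.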

Other observations

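Birc5, Mki67 and 2810417H13Rik were among the 12 genes ranked most like Foxp3, and were chosen from that ranking with no list fixed for them. Birc5 (survivin) was at 46.7 CPM in Foxp3-positive and 4.09 CPM in Foxp3-negative T cells of the allogeneic library, and at 137 CPM and 21.8 CPM in the same classes of the syngeneic library. Mki67, the proliferation marker, was at 48.4 CPM in Foxp3-positive and 5.32 CPM in Foxp3-negative allogeneic T cells, and at 131 CPM and 21.3 CPM in the same syngeneic classes. The transcript 2810417H13Rik was at 91.7 CPM in Foxp3-positive and 5.52 CPM in Foxp3-negative allogeneic T cells, and at 275 CPM and 39.9 CPM in the same syngeneic classes. All 3 were lower in the allogeneic library in Foxp3-positive and in Foxp3-negative T cells.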
